A study of Mus musculus with 12 samples.

Results

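The genes described are 9 that make or assemble the enzymes with which colon tissue produces reactive oxygen and nitric oxide: Duox2, Duoxa2, Nox1, Noxo1, Nos2, Cybb, Cyba, Ncf1 and Ncf4. They were taken by gene symbol from a deposited table of 21899 genes, and all 9 were present, each in 1 row. Colon RNA was sequenced from 6 CKO mice, in which Pck1 was deleted in intestinal epithelial cells, and from 6 WT littermate controls. Both groups had received 2.5% dextran sulfate sodium (DSS) for 7 days, a polymer that injures the colon lining, so no value describes an untreated colon. The sources used here do not give the promoter that drove the deletion, nor the age or sex of the mice. The comparison asks how the colon of DSS-treated mice differs when its epithelium lacks Pck1, the cytosolic phosphoenolpyruvate carboxykinase of gluconeogenesis.

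NADPH oxidases pass electrons from NADPH across a membrane to oxygen. The epithelium of the colon carries the dual oxidase Duox2, which releases hydrogen peroxide into the gut lumen and needs the maturation factor Duoxa2, and Nox1, which makes superoxide together with the organiser Noxo1 and the activator Noxa1. Phagocytes carry a related enzyme whose catalytic subunit gp91phox is encoded by Cybb, with p22phox (Cyba) in the membrane and p47phox (Ncf1) and p40phox (Ncf4) among its cytosolic subunits. Cyba also serves Nox1, so it belongs to both cell classes. Nos2 encodes the inducible nitric oxide synthase, which makes nitric oxide from arginine and is expressed in inflamed colon epithelium and in activated macrophages.

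RefSeq (GRCm38.p6) gave the bases before the transcript start for 7 of the 9 members, without Nos2 and Ncf4. Of these, 3 are shown: that of Duoxa2 because Duoxa2 and Duox2 lie head to head and their levels correlated over the mice, and those of Nox1 and Cybb because these related catalytic subunits are the ones set against each other below. The starts of the Duox2 and Duoxa2 entries lie 673 bases apart on opposite strands. Capitals mark letters that match one of the motifs named after the sequences, and each sequence ends at the base before the start. In RefSeq's gene table the outer end of Duox2 lies at chr2:122298740, beyond the start in its promoter entry, so for Duoxa2 only the 159 bases outside that end are printed.
Duoxa2, chr2:122298741-122298899, plus strand: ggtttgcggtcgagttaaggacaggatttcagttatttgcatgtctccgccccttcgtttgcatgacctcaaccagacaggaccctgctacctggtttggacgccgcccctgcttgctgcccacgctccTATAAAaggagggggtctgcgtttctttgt
Nox1, chrX:134111855-134112104, minus strand: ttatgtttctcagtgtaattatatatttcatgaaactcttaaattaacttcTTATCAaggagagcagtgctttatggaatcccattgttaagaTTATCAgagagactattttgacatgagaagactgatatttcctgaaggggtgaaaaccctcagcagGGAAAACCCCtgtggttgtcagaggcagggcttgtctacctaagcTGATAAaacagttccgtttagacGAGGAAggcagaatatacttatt
Cybb, chrX:9469325-9469574, minus strand: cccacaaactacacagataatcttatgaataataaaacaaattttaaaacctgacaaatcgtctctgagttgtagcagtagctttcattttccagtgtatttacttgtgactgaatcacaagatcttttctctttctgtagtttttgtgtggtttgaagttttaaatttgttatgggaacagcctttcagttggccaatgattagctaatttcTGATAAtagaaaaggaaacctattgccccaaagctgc
The motifs were the box that positions RNA polymerase (letters TATAAA), the site of haematopoietic and gut zinc-finger factors of the GATA family (letters TGATAA), the site of the myeloid factor PU.1 (letters GAGGAA), the site of STAT factors (letters TTCNNNGAA) and that of NF-kappaB. They were searched on both strands of the 250 bases before each start. Duoxa2 held a TATA box 30 to 25 bases before its start, a motif found in 12.4% of all 32851 such windows. Nox1 held the GATA motif at 3 positions, the NF-kappaB motif 91 to 82 bases before its start and the PU.1 motif. Cybb and Cyba each held the GATA motif once. The share of all windows was 7.94% for the GATA motif, 7.25% for NF-kappaB, 23.3% for PU.1 and 7.02% for STAT, which was matched in Ncf1. A match describes letters only, and none was tested as a binding site.

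Depth did not limit any member. Libraries held 15348192 to 18211663 counts in CKO and 15881625 to 19138507 in WT, and the lowest count of a member in any library was 79 (Ncf4). Pck1 checked the labels: its level was 1.73, 2.46 and 4.65 TPM in CKO (lowest, median and highest of 6) against 24.4, 32.2 and 54.6 TPM in WT, a log2 fold change of -3.66 ± 0.32 (SE, edgeR adjusted p 0.000391). Epithelial markers (9 genes) summed to 11991 to 13248 TPM in CKO and 11157 to 16457 TPM in WT, and none was at 0. Neutrophil markers (9 genes) summed to 583 to 3420 TPM in CKO and 243 to 1468 TPM in WT, with WT replicate 4 highest among controls and CKO replicates 4, 5 and 6 lowest among knockouts. Monocyte and macrophage markers (11 genes) summed to 1606 to 3080 TPM in CKO and 1136 to 2008 TPM in WT. Exocrine pancreas genes ran from 3.94 to 2296 TPM in CKO and from 2.18 to 31897 TPM in WT, the highest in WT replicate 6. B cell markers (4 genes) summed to 23.1 to 66.0 TPM in CKO and 21.8 to 61.7 TPM in WT, and 3 genes of all leukocytes to 138 to 309 TPM in CKO and 119 to 230 TPM in WT.

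In the DSS-treated colon, 7 members had a positive log2 fold change in CKO and 2, Nox1 and its organiser Noxo1, a negative one. By point estimate the phagocyte genes, the Duox2 unit, Nos2 and Cyba, which serves both classes, were thus on one side. Nox1 and Noxo1 were on the other. None of the 9 passed an adjusted p of 0.05 in edgeR's quasi-likelihood test over the 14393 genes tested, in which 0.0278% of genes were higher and 0.0278% were lower. At an unadjusted p under 0.05, 5 members were higher (Nos2, Ncf1, Ncf4, Cyba and Cybb), against 13.1% of all genes tested, and 1 was lower (Noxo1), against 9.48% of all genes. The median log2 fold change was 0.41 over the 9 members and -0.03 over all genes. DESeq2 called 4 members higher, against 7.98% of all genes with an adjusted p, and 1 lower, against 3.1%. Limma voom called 0 members, against 0.208% of all genes higher and 0.132% lower. Of the 9 members, 5 had an adjusted p under 0.05 in the authors' deposited table, in either direction, against 6.35% of its 21899 genes. Only 18161 of those genes had at least 1 count, so this share is over a wider set than the 14393 genes tested. In TPM, 1 member (Cyba) had all CKO libraries above all WT libraries, as did 1.31% of the genes tested, and 0 members had all below, against 0.271% of genes. The p-values set the group difference against the spread between the 6 mice of each group, which the fits moderate across genes.

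**Figure D1:**
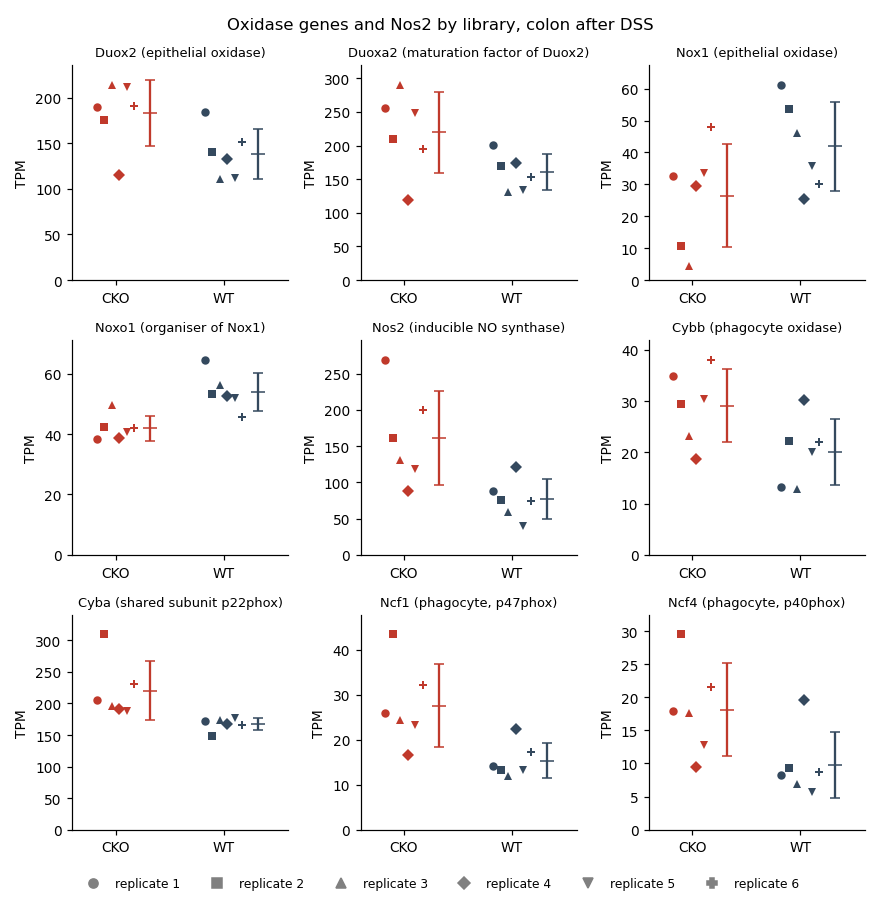
TPM of each of the 9 genes (y axis, from 0) in the 6 CKO libraries (left, red) and the 6 WT libraries (right, dark). Each marker is a mouse, its shape the replicate number, and the bar beside each group is the mean with its SD. The groups are apart only for Cyba, where the lowest CKO library stands at 188 and the highest WT library at 176 TPM.

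The call for single members depended on the libraries numbered 4. Without CKO replicate 4, edgeR called 4 members higher and 1 lower, while 6.02% of all genes were called higher and 2.78% lower. Without WT replicate 4 it called 3 members higher and 1 lower, beside 5.03% and 1.93% of all genes. Without WT replicate 6 it called 0 members higher and 1 lower, beside 1.88% and 0.699% of all genes. Without both libraries numbered 4 it called 5 members higher and 1 lower, beside 8.4% and 4.88% of all genes. The number of calls thus grew over the whole table as well as among the members. CKO replicate 4 was the lowest CKO library in Nos2, Cybb, Ncf1 and Ncf4, and WT replicate 4 the highest WT library in the same genes. Leaving out both therefore widened the differences of these genes by construction, and their passing without them is no separate support. Neutrophil markers summed to 618 TPM in CKO replicate 4 and to 1468 TPM in WT replicate 4, and their part in these values was not tested.

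**Figure D2:**
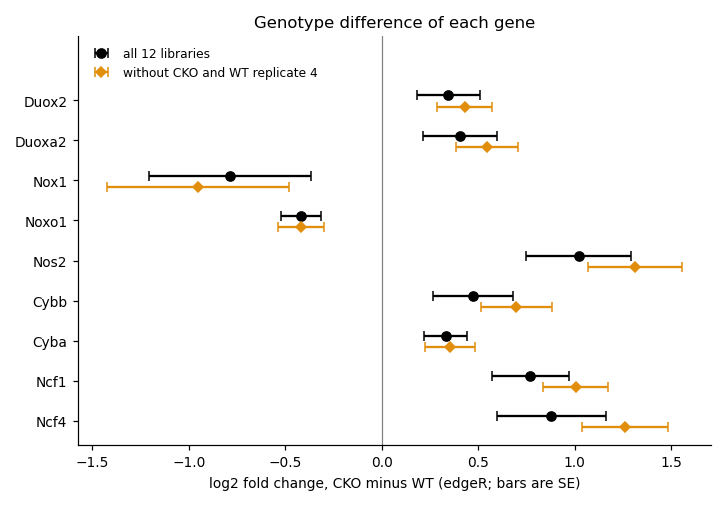
Log2 fold change of each gene, CKO minus WT, from edgeR (x axis) with its SE as a bar, from all 12 libraries (black circles) and from the 10 libraries left without CKO and WT replicate 4 (orange diamonds). Nox1 and Noxo1 lie left of 0 and the other 7 right of 0 in both fits.

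The levels per length (TPM) placed the shared subunit and the Duox2 unit at the top. In CKO the order of means was Cyba (220.2 ± 46.4 TPM), Duoxa2 (219.7 ± 59.7), Duox2 (183 ± 36.2), Nos2 (161 ± 65.4), Noxo1 (41.9 ± 4.06), Cybb (29.1 ± 7.18), Ncf1 (27.6 ± 9.23), Nox1 (26.5 ± 16.1) and Ncf4 (18.2 ± 7.01; SD, n = 6). In WT it was Cyba (167 ± 10.2 TPM), Duoxa2 (160.5 ± 26.7), Duox2 (138 ± 27.5), Nos2 (76.5 ± 27.7), Noxo1 (54.1 ± 6.24), Nox1 (42.0 ± 14.0), Cybb (20.1 ± 6.48), Ncf1 (15.4 ± 3.89) and Ncf4 (9.72 ± 5.01; SD, n = 6). The same 4 members, Cyba, Duoxa2, Duox2 and Nos2, had the highest means in both groups. Neighbours in the order had overlapping ranges in WT, and in CKO the exceptions were Nos2 above Noxo1 and Noxo1 above Cybb. Nox1 stood above Cybb in the WT order and below it in the CKO order.

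Duox2 and Duoxa2 were modestly higher in most CKO mice, short of the test. Duox2 (ENSMUSG00000068452) had 115, 190.3 and 214 TPM in CKO (lowest, median and highest of 6), against 111, 137 and 184 TPM in WT. Of the 6 CKO libraries 4 lay above all WT libraries, and CKO replicate 4, at 115 TPM, lay among the lowest controls. The log2 fold change of Duox2 was 0.35 ± 0.16 (SE), with an edgeR adjusted p of 0.228, and it stayed above 0.05 under all 23 alternatives, at 0.0536 to 0.407. Duoxa2 had 119.6, 229 and 290.2 TPM in CKO, against 130.2, 161 and 201 TPM in WT. Again 4 CKO libraries lay above all controls and CKO replicate 4 lay below them. Its log2 fold change was 0.41 ± 0.19 (SE, edgeR adjusted p 0.229), and 0.53 with an adjusted p of 0.0437 without CKO replicate 4 (range 0.0437 to 0.454 over the alternatives). Leaving out this library, the lowest CKO one in Duoxa2, widened the difference by construction. Duoxa2 overlaps the neighbouring gene Duoxa1 in the annotation, and the sources used here do not say whether counting used strand, so reads of the pair may be split with error. Duoxa1 itself was at most 3.60 TPM in CKO and 3.64 TPM in WT.

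Duox1, the other dual oxidase, was at most 0.142 TPM in CKO and 0.277 TPM in WT and was too low to be tested. Epcam, an adhesion molecule of epithelial cells, was 1390 ± 132 TPM in CKO and 1545 ± 156 TPM in WT (SD, n = 6), with a log2 fold change of -0.22 ± 0.10 (SE, edgeR adjusted p 0.205). In whole tissue, fewer cells of a type and less RNA per cell cannot be told apart. The ratio of Duox2 to Epcam within a library, which does not depend on library scaling, was 0.0781, 0.135 and 0.174 in CKO (TPM ratio, lowest, median and highest), against 0.0682, 0.0904 and 0.117 in WT. In 5 of 6 CKO libraries it exceeded every WT library, and CKO replicate 4 lay among the controls. The log2 ratio of counts was 0.55 higher in CKO (exact permutation p = 0.0346, two-sided, or 0.0693 adjusted over the 8 ratios tested), and it passed at 0.69 without CKO replicate 4 (adjusted p 0.0260) and at 0.73 without both libraries numbered 4 (0.0212; range 0.0212 to 0.2 over the alternatives).

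Nox1 and Noxo1, the epithelial superoxide unit, were the members with negative log2 fold changes. Epithelial markers leaned the same way: of 9 tested, 8 had a log2 fold change below 0, and the median was -0.13. At an unadjusted p under 0.05 (edgeR), 4 of these markers were lower and 0 higher, against 9.48% and 13.1% of all genes tested. Of the markers, 0 passed an adjusted p. Their part in the values of Nox1 was examined only through its ratio to Epcam, and for Noxo1 it was not tested. Nox1 (ENSMUSG00000031257) had 4.40, 31.0 and 48.1 TPM in CKO, against 25.3, 40.8 and 61.2 TPM in WT. Of the CKO mice 2, replicates 3 at 4.40 TPM and 2 at 10.8 TPM, lay below every control, while the other 4 lay within the range of the controls. These 2 libraries also held the highest sums of neutrophil markers, at 3155 and 3420 TPM, and their epithelial marker sums were 12439 TPM in replicate 3, within the range of the other CKO libraries, and 13248 TPM in replicate 2, the highest of the CKO libraries. The log2 fold change of Nox1 was -0.78 ± 0.42 (SE, edgeR adjusted p 0.288) and ran from -1.04 to -0.57 over the alternatives, with none past the threshold. Its spread among CKO mice was the widest of the members, with an SD of 60.8% of the mean, against 33.3% in WT.

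Noxo1, which binds the membrane and holds the Nox1 complex together, differed less but more evenly. It had 38.3, 41.3 and 49.5 TPM in CKO, against 45.7, 52.9 and 64.7 TPM in WT. Of the 6 CKO libraries 5 lay below all WT libraries, and the exception was CKO replicate 3, the library with the least Nox1. The log2 fold change was -0.42 ± 0.10 (SE), with an edgeR adjusted p of 0.0580, the lowest of the members. It passed under 5 of 23 alternatives (range of adjusted p 0.00820 to 0.259), among them DESeq2 and the fits without CKO replicate 4, WT replicate 4 or WT replicate 6. WT replicate 6 was the lowest control in Noxo1, so leaving it out widened the difference by construction. Noxa1, the activator of the same complex, had a log2 fold change of -0.30 ± 0.17 (SE, edgeR adjusted p 0.335). Rac1, the small GTPase that switches the complex on, was the most abundant gene among the other oxidase genes, at 342 ± 20.2 TPM in CKO and 313 ± 25.3 TPM in WT (SD, n = 6), with a log2 fold change of 0.07 ± 0.07 (SE).

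The phagocyte oxidase genes were higher in CKO by point estimate, the regulatory subunits more than the catalytic one. Cybb (ENSMUSG00000015340), the catalytic subunit, had 18.8, 30.0 and 38.1 TPM in CKO, against 13.0, 21.0 and 30.3 TPM in WT. The groups overlapped, with CKO replicate 4 lowest among knockouts and WT replicate 4 highest among controls. Its log2 fold change was 0.47 ± 0.21 (SE, edgeR adjusted p 0.195), and 0.70 with an adjusted p of 0.0314 without both libraries numbered 4 (range 0.0314 to 0.353). Ncf1, the organiser p47phox, had 16.5, 25.2 and 43.4 TPM in CKO, against 11.9, 13.7 and 22.4 TPM in WT. All CKO libraries except replicate 4 lay above every control. Its log2 fold change was 0.77 ± 0.20 (SE, edgeR adjusted p 0.0615), and 1.0 with an adjusted p of 0.00534 without both libraries numbered 4 (range 0.00534 to 0.259).

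Ncf4, the p40phox subunit that binds membrane phosphoinositides, had 9.45, 17.8 and 29.5 TPM in CKO, against 5.64, 8.44 and 19.6 TPM in WT. Only 2 CKO libraries exceeded the highest control, WT replicate 4, although all 6 exceeded the WT median. The log2 fold change was 0.88 ± 0.28 (SE, edgeR adjusted p 0.0934), and 1.26 with an adjusted p of 0.00670 without both libraries numbered 4 (range 0.00670 to 0.264). Cyba, the membrane partner of both oxidase classes, had 188, 201 and 310 TPM in CKO, against 148, 169.6 and 176 TPM in WT. All 6 CKO libraries lay above all 6 controls in TPM. In counts scaled by TMM the groups overlapped for Cyba, and its log2 fold change was 0.33 ± 0.11 (SE, edgeR adjusted p 0.102). CKO replicate 2 held the highest Cyba, Ncf1 and Ncf4 levels of all libraries, and also the highest sums of neutrophil (3420 TPM) and monocyte and macrophage markers (3080 TPM).

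Of the 8 neutrophil markers tested, 6 were higher at an unadjusted p under 0.05 (edgeR), against 13.1% of all genes tested. Past an adjusted p there were 0, and the median log2 fold change was 1.97. Of the 9 in the table, 0 were at 0 in every library. Of 11 monocyte and macrophage markers 6 were higher at an unadjusted p, against the same 13.1%, and 0 at an adjusted p, with a median of 0.42. Ptprc, the pan-leukocyte receptor CD45, was 37.3 ± 15.4 TPM in CKO and 32.6 ± 13.0 TPM in WT (SD, n = 6), with a log2 fold change of 0.11 ± 0.31 (SE, edgeR adjusted p 0.872). It was the lowest of the all-leukocyte genes. Laptm5 stood at 0.46 ± 0.18 (adjusted p 0.154) and Coro1a at 0.19 ± 0.20 (adjusted p 0.616; edgeR, log2 fold change and SE). The ratios below are to Ptprc only, and ratios to Laptm5 or Coro1a were not tested. The TPM ratio of Cybb to Ptprc was 0.614, 0.786 and 1.18 in CKO, against 0.572, 0.602 and 0.890 in WT. Its log2 count ratio was 0.38 higher (exact permutation p = 0.0606, adjusted 0.0866), and 6 of 6 CKO libraries exceeded the WT median. For Ncf4 to Ptprc the TPM ratio was 0.258, 0.458 and 1.18 in CKO, against 0.176, 0.287 and 0.552 in WT, a log2 difference of 0.75 (exact permutation p = 0.0649, adjusted 0.0866). Without CKO replicate 5 both ratios passed, at 0.46 and 0.92 with an adjusted p of 0.0485 each (exact permutation; range 0.0485 to 0.218 for Cybb and 0.0485 to 0.2 for Ncf4). CKO replicate 5 was the lowest CKO library in both ratios. Leaving it out widened the differences by construction, and their passing without it is no separate support. Without CKO replicate 2, the library with the most neutrophil and macrophage markers, the differences were 0.27 for Cybb and 0.48 for Ncf4, each with an adjusted p of 0.17 (exact permutation). How far the number and kind of leukocytes set these levels was not tested beyond these ratios.

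**Figure D3:**
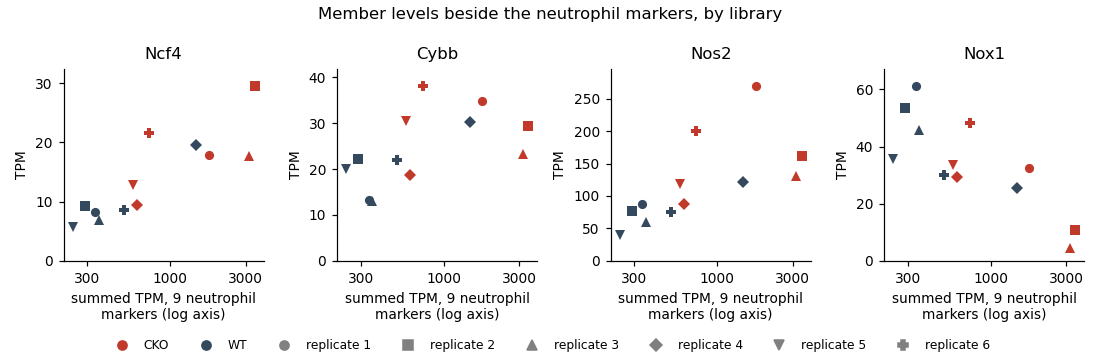
TPM of Ncf4, Cybb, Nos2 and Nox1 (y axes, from 0) against the summed TPM of 9 neutrophil markers (x axis, log scale) in the 12 libraries, with CKO in red, WT in dark and the replicate number as shape. CKO replicates 2 and 3, at 3420 and 3155 TPM of the markers, hold the least Nox1, and WT replicate 4, at 1468 TPM, holds the most Ncf4 of the controls.

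Among the 13 other oxidase and regulator genes of the list, 11 were tested. At an unadjusted p under 0.05 (edgeR), 4 were higher and 0 lower, against 13.1% and 9.48% of all genes tested. Of the 11, 0 passed an adjusted p. The smallest p belonged to Sh3pxd2b, an organiser-like scaffold of podosomes, at 25.3 ± 9.10 TPM in CKO and 10.8 ± 3.16 TPM in WT (SD, n = 6), with a log2 fold change of 1.17 ± 0.22 (SE, edgeR adjusted p 0.0512). Cybc1, a chaperone of the Cybb and Cyba heterodimer, stood at 0.34 ± 0.13 (adjusted p 0.130; edgeR, log2 fold change and SE). Rac2, the leukocyte GTPase of the phagocyte oxidase, stood at 0.42 ± 0.20 (SE). The median of the 11 genes was 0.17. Nox3 was listed at 0 in every library, and Nox4, the constitutively active oxidase of stromal cells, was at most 1.20 TPM in CKO and 1.03 TPM in WT. Of 5 peroxidase genes that use hydrogen peroxide, 2 were tested, with a median of 0.35. At an unadjusted p under 0.05 (edgeR), 1 was higher (Pxdn, 0.55 ± 0.25, log2 fold change and SE), against 13.1% of all genes. Of these, 0 passed an adjusted p. Lpo was 21.8 ± 6.71 TPM in CKO and 19.0 ± 7.10 TPM in WT (SD, n = 6), while the neutrophil enzyme Mpo was at most 0.185 TPM in CKO and 0.361 TPM in WT.

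Nos2 showed the largest log2 fold change of the 9 members. Nos2 (ENSMUSG00000020826) had 87.7, 146 and 269 TPM in CKO, against 39.5, 75.3 and 122 TPM in WT. All 6 CKO libraries exceeded the WT median and 4 exceeded every control, and the groups overlapped through WT replicate 4 at 122 TPM and CKO replicate 4 at 87.7 TPM. The log2 fold change was 1.02 ± 0.27 (SE), with an edgeR adjusted p of 0.0636. It was 1.31 with an adjusted p of 0.00838 without both libraries numbered 4 (range 0.00573 to 0.259 over the alternatives). Leaving out these libraries, the lowest CKO and the highest WT one, widens the difference by construction. Relative to Epcam, Nos2 was 0.0595, 0.119 and 0.190 in CKO (TPM ratio), against 0.0242, 0.0486 and 0.0918 in WT, a log2 difference in counts of 1.21 (exact permutation p = 0.0108, adjusted 0.0693). It passed without CKO replicate 4 (1.39, adjusted p 0.0260), CKO replicate 5 (1.32, 0.0485), WT replicate 4 (1.41, 0.0346) and both libraries numbered 4 (1.58, 0.0212; exact permutation, range 0.0212 to 0.2 over the alternatives). The ratio does not say which cells held Nos2, since macrophages can express it too.

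Genes that feed or drain nitric oxide synthesis were examined as a list of 15. At an unadjusted p under 0.05 (edgeR), 7 were higher and 0 lower, against 13.1% and 9.48% of all genes tested. Of the list, 0 passed an adjusted p, and the median log2 fold change was 0.25. Slc7a2, an inducible importer of arginine, was 3.50 ± 2.15 TPM in CKO and 0.909 ± 0.483 TPM in WT (SD, n = 6), with a log2 fold change of 1.78 ± 0.39 (SE, edgeR adjusted p 0.0531). Ass1, which rebuilds arginine from citrulline, stood at 0.51 ± 0.12 (adjusted p 0.0562) and Arg1, the arginase that competes for arginine, at 1.45 ± 0.39 (adjusted p 0.0636; edgeR, log2 fold change and SE). Odc1, the polyamine enzyme downstream of arginase, had the highest level of the list and a log2 fold change of -0.04 ± 0.12 (SE). Nos1, the neuronal synthase, and Nos3, the endothelial one, stood at 0.73 ± 0.23 and 0.57 ± 0.21 (log2 fold change and SE).

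Enzymes that remove superoxide and peroxide did not go one way. Of 16 genes, 6 were higher at an unadjusted p under 0.05 (edgeR), against 13.1% of all genes tested. The mitochondrial peroxiredoxin Prdx3 was the 1 lower gene, against 9.48%. Of the 16, 0 passed an adjusted p, and the median log2 fold change was 0.06. Sod2, the mitochondrial superoxide dismutase, was 57.4 ± 17.3 TPM in CKO and 30.7 ± 5.25 TPM in WT (SD, n = 6), with a log2 fold change of 0.83 ± 0.17 (SE, edgeR adjusted p 0.0531). Gpx3, the secreted glutathione peroxidase, stood at 1.44 ± 0.34 (adjusted p 0.0569) and Sod3, the extracellular dismutase, at 1.09 ± 0.29 (adjusted p 0.0636; edgeR, log2 fold change and SE). Prdx6, the most abundant of the list, was 1233 ± 136 TPM in CKO and 1347 ± 256 TPM in WT (SD, n = 6). Gpx2, the glutathione peroxidase of the gut epithelium, had a log2 fold change of -0.26 ± 0.17 (SE).

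The epithelial oxidases were then set against the phagocyte oxidase within each library. The ratio of Duox2 to Cybb differed by less than its spread among mice. It was 5.0, 6.03 and 9.21 in CKO (TPM ratio, lowest, median and highest), against 4.39, 6.59 and 13.9 in WT. The log2 count ratio was 3.02 ± 0.31 in CKO and 3.19 ± 0.57 in WT (SD, n = 6), a difference of -0.17 (exact permutation p = 0.556, adjusted 0.556), and 0.02 without WT replicate 1, so its direction rests on that mouse. The TPM ratio of Nox1 to Cybb was 0.190, 1.02 and 1.57 in CKO, against 0.836, 2.09 and 4.61 in WT, and no CKO library exceeded the WT median. The log2 count ratio was -1.42 ± 1.19 in CKO and 0.14 ± 0.91 in WT (SD, n = 6), a difference of -1.56 (exact permutation p = 0.0281), which missed the threshold at 0.0693 adjusted over the 8 ratios. It passed without CKO replicate 4 (-1.78, adjusted p 0.0346), without CKO replicate 5 (-1.68, 0.0485), without WT replicate 4 (-1.82, 0.0346) and without both libraries numbered 4 (-2.05, 0.0212; exact permutation). Without CKO replicate 3 it was -1.17 with an adjusted p of 0.114 (exact permutation; range 0.0212 to 0.208 over the alternatives).

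The epithelial oxidases were also set against each other, and their ratio did not pass the test with all 12 libraries. Duox2 exceeded Nox1 by a TPM ratio of 3.91, 6.08 and 48.5 in CKO, against 2.41, 3.07 and 5.25 in WT, and 6 of 6 CKO libraries exceeded the WT median. The log2 count ratio of Duox2 to Nox1 was 1.39 higher in CKO (exact permutation p = 0.0260, adjusted 0.0693). It was 0.89 without CKO replicate 3, where Nox1 was lowest (adjusted p 0.114), 1.62 without CKO replicate 4 (adjusted p 0.0346), 1.48 without CKO replicate 5 (0.0485) and 1.75 without both libraries numbered 4 (0.0317, exact permutation, range 0.0317 to 0.2). Nox1 relative to Epcam was 0.00359, 0.0208 and 0.0336 in CKO, against 0.0191, 0.0252 and 0.0390 in WT, a log2 difference of -0.84 (exact permutation p = 0.139, adjusted 0.158). It was -0.43 without CKO replicate 3.

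**Figure D4:**
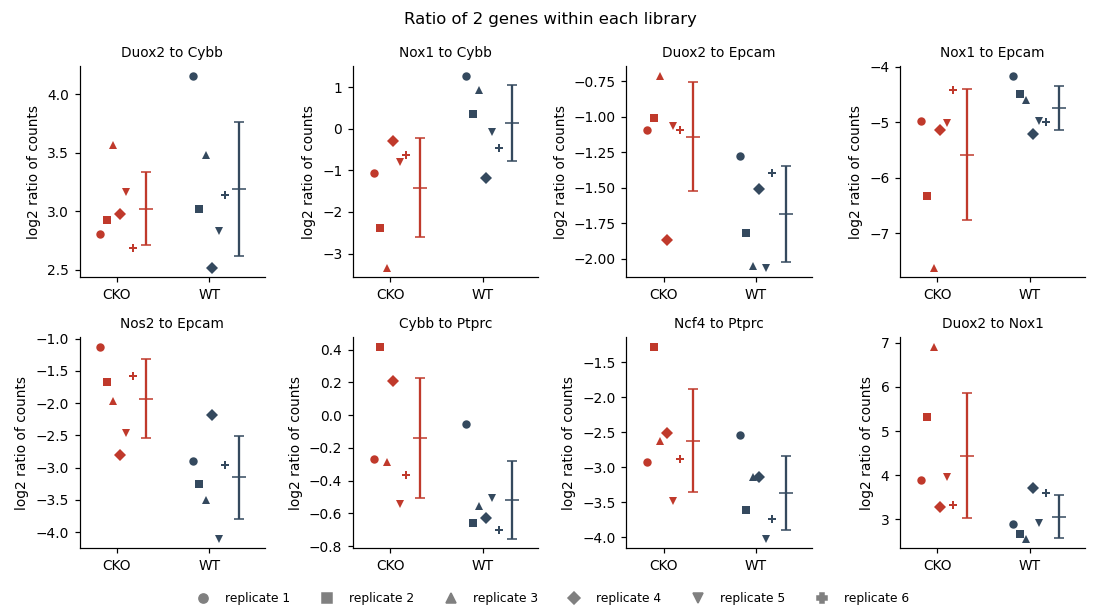
Log2 ratio of the counts of 2 genes within each library (y axis, one panel per ratio), with CKO left in red and WT right in dark, markers for the 6 mice of each group by replicate number, and the mean with its SD beside them. Duox2 to Cybb overlaps widely. For Nox1 to Cybb, 2 of the 6 CKO libraries lie below every WT library and 0 above the WT median. For Duox2 to Nox1, 4 of the 6 lie above every WT library and 6 above the WT median.

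Mouse to mouse, after subtracting each genotype's mean from log2 CPM, 36 combinations of members were correlated over the 12 libraries, and 2 passed by Pearson's r after adjustment. Duox2 and Duoxa2, the head-to-head genes, had r = 0.92 (permutation p = 0.00019, adjusted 0.0054) and rho = 0.88 (permutation p = 0.00043, adjusted 0.0155), with r = 0.80 without CKO replicates 3 and 4. Ncf1 and Ncf4, both cytosolic subunits of the phagocyte oxidase, had r = 0.92 (permutation p = 0.0003, adjusted 0.0054) and rho = 0.83 (permutation p = 0.00307, adjusted 0.0512), with r = 0.81 without CKO replicate 2 and WT replicate 4. Within genotypes the values for Duox2 and Duoxa2 were 0.97 in CKO and 0.88 in WT, and for Ncf1 and Ncf4 0.98 in CKO and 0.83 in WT. Nos2 came nearest to Ncf4 (r = 0.75, permutation p = 0.00995, adjusted 0.119; rho = 0.81, permutation p = 0.00427, adjusted 0.0512; r = 0.57 without CKO replicate 4 and WT replicate 5). Nox1 and Noxo1 did not follow each other (r = -0.47, permutation p = 0.17, adjusted 0.473; rho = -0.32, permutation p = 0.308, adjusted 0.693; r = 0.19 without CKO replicates 2 and 3).

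The tested genes most like each main member were ranked by the same genotype-centred Pearson r over 12 libraries, as a description of the extremes among 14393 genes. After Duoxa2 (0.92), Duox2 was most like Cars (0.91), a transfer RNA synthetase, Txnrd1 (0.89), a thioredoxin reductase, Ric3 (0.85) and Gpd2 (0.84), and least like Prr36 (-0.86), Irf2bp2 (-0.85) and Ccdc62 (-0.85). Nox1 was most like Bcl11b (0.98), Cdca7 (0.96), Scd2 (0.96), Mrpl51 (0.95) and Ptcd2 (0.95), and least like Dach1, Nt5c2 and Galnt15 (each -0.94). Nox1 was by far lowest in CKO replicates 3 and 2 (4.40 and 10.8 TPM), and its values were not recomputed without them. Nos2 was most like Rasgef1a (0.90), Sprr1a (0.89), Acod1 (0.87), the itaconate-making enzyme of activated macrophages, Mfsd2a (0.87) and the cytokine gene Il1b (0.85), and least like Aoc1 (-0.88), Rbp2 (-0.87) and Zfp629 (-0.87). Among the genes most like Cybb were the leukocyte genes Ptprc (0.91) and Havcr2 (0.91), with Mefv (0.91) and Rab8b (0.91), and it was least like Dnajc4 (-0.98), Mcu (-0.94) and Smad2 (-0.91).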

How the data were processed

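Trizol was used to extract colon RNA, and a SMARTER mRNA-Seq kit to prepare libraries, per the labels' protocols. The authors deposited whole-number read counts per gene and TPM, with their own log2 fold changes and p-values, for 21899 genes. The submitters' processing notes list the builds GRCm38, mm10 and mm39 without roles. The sources used here name no aligner, counter or use of strand. Groups came from the labels, with 6 CKO and 6 WT libraries, and 0 columns belonged to other samples.

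Counts were tested with edgeR 4.0.16 in R 4.3.3 (filterByExpr with a minimum count of 10 and total of 15, TMM, quasi-likelihood test, Benjamini-Hochberg over 14393 genes, threshold 0.05). Alternatives used DESeq2 1.42.0, limma 3.58.1, other scalings and filters, and leaving out libraries. Log2 ratios of counts within a library (0.5 added) were compared by exact two-sided permutation tests over 924 arrangements (scipy 1.17.1), adjusted over 8 ratios, with a smallest possible p of 0.00216. Correlations used 100000 permutations within genotype. The fit across all genes was tested on simulated data. The members and the gene and marker lists were chosen with earlier results of these data known. All members are named; from each list, the 3 genes with the smallest p, the most abundant one and others by value; and for 4 members the 5 most and 3 least correlated tested genes with a symbol. Some genes that this rule names are not reported here. Levels rest on 15348192 to 19138507 counts per library. TPM carries no depth of its own.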

Additional observations from a re-analysis of the deposited data

Results flagged for a closer look

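In 6 of 34 combinations of a group and a quantity, 1 library stood apart from the other 5 by more than Dixon's critical share of the group's range, which chance does in about 1 in 20. Noxo1 was 49.5 TPM in CKO replicate 3, above the other CKO libraries. Cyba was 310 TPM in CKO replicate 2, above the others, and 148 TPM in WT replicate 2, below the others. Ncf4 was 19.6 TPM in WT replicate 4, above the other controls. The log2 ratio of Duox2 to Epcam was -1.87 in CKO replicate 4, below the other CKO libraries. The log2 ratio of Cybb to Ptprc was -0.054 in WT replicate 1, above the other controls.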

How the results depend on the processing

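No member changed direction under any of 23 alternatives. The count of all genes past the threshold was far less stable than the directions: 4 higher and 4 lower with the chosen fit, 33 and 19 with DESeq2 size factors, 230 and 45 with library size only, 32 and 21 with a robust fit, 1103 and 429 with DESeq2, 30 and 19 with limma voom, 355 and 48 with limma-trend, and 1209 and 702 without both libraries numbered 4. Leaving out 1 library gave 0 to 870 higher and 2 to 402 lower. Members past the threshold numbered 4 higher and 1 lower with DESeq2 and 5 and 1 without both libraries numbered 4, and ran from 0 to 4 higher and 0 to 1 lower with 1 library left out. The causes were not tested. Of the ratios, without both libraries numbered 4, Nox1 to Cybb (-2.05), Duox2 to Epcam (0.73), Nos2 to Epcam (1.58) and Duox2 to Nox1 (1.75) passed the threshold. For Nox1 to Cybb, Nos2 to Epcam and Duox2 to Nox1, each was its group's library nearest the other group. For Duox2 to Epcam, CKO replicate 4 was. Leaving them out thus widened these differences by construction. With 1 library left out the log2 ratios ran from 0.27 to 0.47 for Cybb to Ptprc, -0.31 to 0.02 for Duox2 to Cybb (the sign changed, to 0.022, without WT replicate 1), 0.46 to 0.69 for Duox2 to Epcam, 0.89 to 1.62 for Duox2 to Nox1, 0.48 to 0.92 for Ncf4 to Ptprc, 1.02 to 1.41 for Nos2 to Epcam, -1.82 to -1.17 for Nox1 to Cybb and -1.07 to -0.43 for Nox1 to Epcam. Same-numbered libraries did not deviate together (r from -0.50 to 0.08, and 0 of 6 matched best with their own number). This gave no sign that the numbers pair mice, but cannot exclude it. With the replicate block 0 genes were higher and 1 was lower, and no ratio passed.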

Other observations

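In the authors' deposited table, the members with an adjusted p under 0.05, which 6.35% of its genes had, were Nos2 (0.00738), Ncf1 (0.00823), Noxo1 (0.0102), Ncf4 (0.0340) and Cyba (0.0477). In the authors' deposited table the values were 0.178 for Cybb, 0.204 for Duox2, 0.211 for Duoxa2 and 0.283 for Nox1, with log2 fold changes of 1.07 for Nos2, 0.84 for Ncf1 and -0.37 for Noxo1. The correlation of Nox1 with Noxo1 was -0.87 over the 6 CKO mice and 0.76 over the 6 WT mice, given as values without a test. Among CKO mice, replicate 3 held both the least Nox1 (4.40 TPM) and the most Noxo1 (49.5 TPM). Over both genotypes r was 0.19 without CKO replicates 2 and 3.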
